A study of Mus musculus with 24 samples.

Results

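The comparison described here is between replicate numbers. The 12 libraries numbered 3 or 4 were set against the 12 numbered 1 or 2, out of 24 libraries in all, with dose and culture time held as a term. Replicate numbers were taken from the sample titles, and no measured value was used to form the sets. The libraries were made from forelimb buds of CD1 mouse embryos collected at gestation day 13 and kept in culture, and poly-A RNA was sequenced. The 6 groups were DMSO (solvent control), 1 µM BPDP and 10 µM BPDP at 3 h, and the same treatments at 24 h, with 4 libraries each. BPDP, tert-butylphenyl diphenyl phosphate, belongs to the organophosphate esters, which are added to plastics to slow burning and to soften them. Each group therefore gave 2 libraries to each set, so that neither dose nor time differed between the sets. The labels do not say what a replicate number stands for (a litter, a culture day or a preparation), so p-values measure only the spread between these samples, and the sources of a difference between the sets cannot be told apart.

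At this stage the limb skeleton is laid down as cartilage. Mesenchymal cells condense, switch on Sox9 and secrete type II collagen and aggrecan, and chondrocytes in the centre of each element then stop dividing, enlarge and make type X collagen before bone replaces them. Cells at the margins and the tip of the bud stay undifferentiated and keep expressing patterning genes such as Lhx2, Lhx9 and Grem1, so the balance between the patterning and the cartilage programme shifts as a limb bud matures. CD1 is an outbred mouse stock.

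Total counts per library lay between 14165947 and 20823058, over 25844 genes. Levels are given as CPM, counts scaled to a common library size with TMM factors. The limb label was checked on Lhx2, which had at least 29.4 CPM in every library, and on Col2a1, which had at least 1965 CPM. Yam1, a non-coding RNA gene, took 4.46% of the counts in 3 h control replicate 4 and 5.36% in 1 µM replicate 3 at 3 h, both in the set of replicates 3 and 4. In the other 22 libraries no gene took more than 2.04%. Xist, the RNA of the inactive X chromosome, was below 1 CPM in 3 h controls 1 and 2 and in replicate 3 of the 1 and 10 µM groups at 24 h, and between 117.4 and 707.0 CPM elsewhere. It was not called between the sets (log2 fold change 0.09, SE 0.98, adjusted p = 0.973 by edgeR).

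Replicates 3 and 4 differed from replicates 1 and 2 in many genes, most of them in the same direction in every group. The quasi-likelihood test of edgeR, with Benjamini-Hochberg adjustment, called 1561 of 16691 genes at an adjusted p under 0.05 (9.35%), 655 of them higher in replicates 3 and 4 (3.92%) and 906 lower (5.43%). Most of the differences were small. The median absolute log2 fold change of the called genes was 0.308, and 205 genes (1.23%) differed by at least 2-fold, 54 higher and 151 lower. The difference had the same direction in all 6 groups for 1240 of the 1561 called genes (79.4%), against 14.5% of all genes tested. The called genes were picked by their difference over these same groups. A higher share among them is therefore largely built in and is given as a description. Without the 2 libraries high in Yam1, 1108 genes were called. The count fell to 518 when replicate 3 was left out of every group, and to 669 without replicate 4.

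After the mean of each group was removed, the leading principal component held 19.5% of the remaining variance and separated the sets with no overlap. Replicates 3 and 4 scored from 15.001 to 30.5 and replicates 1 and 2 from -26.6 to -15.02. Libraries of different groups were correlated over genes after the same centring. All 120 pairs that joined one set with the other had a negative correlation (median -0.149). The 60 pairs with the same number had a median of 0.150, and the 60 pairs with the other number of the same set had a median of 0.125. After centring, the values of the 4 libraries of a group sum to 0 for each gene. Positive correlations within a set therefore go with negative ones between the sets and are not a separate result. These values describe the structure and test nothing. Of the total variance, the 6 groups held 41.2%, the sets 11.2% and the numbers within a set 6.61%. These terms have different numbers of levels, and scatter alone gives each a share above 0, so the shares cannot be compared directly.

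**Figure D1:**
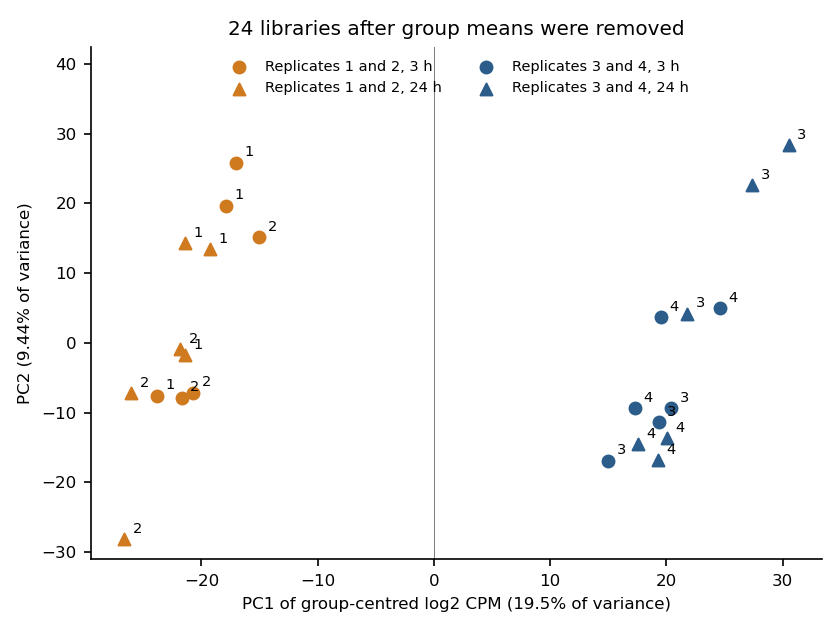
Principal components of log2 CPM after group means were removed. Each point is 1 of the 24 libraries, with its replicate number beside it, coloured by set and shaped by culture time, and the axes give the share of variance. The 12 libraries of replicates 3 and 4 lie between 15.001 and 30.5 on PC1 and the other 12 between -26.6 and -15.02.

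Within a set, far fewer genes were called between the replicate numbers. Replicate 2 differed from replicate 1 in 12 genes (0.0719%), 7 higher (0.0419%) and 5 lower (0.03%), and replicate 4 from replicate 3 in 0 genes (0.0%, with 677 at an unadjusted p under 0.05). Without the 4 libraries of 10 µM at 3 h these counts were 20 and 5. Across the sets, replicate 3 differed from replicate 1 in 790 genes and from replicate 2 in 580, and replicate 4 in 625 and 402. These 6 contrasts came from the same edgeR fit and share libraries. They take a number to mean the same in every group, which was not tested. In every 3 h group some libraries numbered 3 or 4 correlated more with the other number of their set. The count of 0 genes between 4 and 3 therefore cannot show that these libraries were alike.

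Cartilage matrix genes were lower in replicates 3 and 4. Of 21 tested early cartilage genes 15 were lower and 1 was higher (76.2% called, beside 9.35% of all genes). The median log2 fold change was -0.45, where the median over all genes tested was -0.0010. The differences with the smallest p included Matn3 (matrilin 3, log2 fold change -1.30, SE 0.13, adjusted p = 1.58e-06 by edgeR) and Epyc (epiphycan, a small cartilage proteoglycan, -1.14, SE 0.12, adjusted p = 2.2e-06). Ucma, a small secreted protein of cartilage with few counts, had the largest fold change (-1.73, SE 0.42, adjusted p = 0.00796). Wwp2, a ubiquitin ligase, was the one called higher (0.17, adjusted p = 0.045). Without the 2 libraries high in Yam1 the list had 14 lower genes, and in the 8 control libraries alone it had 7.

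Matn1, matrilin 1 of the cartilage matrix, had 109 CPM at its lowest, 142 at the median and 160 at its highest among the 6 libraries of replicates 1 and 2 at 3 h, against 63.9, 84.2 and 99.1 CPM in replicates 3 and 4. At 24 h it had 412, 452 and 492 CPM against 262, 270 and 351 CPM. The sets did not overlap at either time. The log2 fold change was -0.70 (SE 0.06, adjusted p = 1.3e-09 by edgeR), and it lay between -0.78 and -0.63 in 39 alternative analyses.

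Acan codes for aggrecan, the large proteoglycan of cartilage. At 3 h it had 179, 202 and 247 CPM (lowest, median, highest) in replicates 1 and 2 and 107, 132 and 153 CPM in replicates 3 and 4. At 24 h the values were 374, 470 and 542 CPM against 292, 375 and 411 CPM, and the sets overlapped there. The log2 fold change was -0.52 (SE 0.06, adjusted p = 1.14e-06 by edgeR).

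The fibrillar collagens of cartilage followed. Col11a1, a chain of type XI collagen, had 422 to 581 CPM in replicates 1 and 2 and 294 to 348 CPM in replicates 3 and 4 at 3 h (log2 fold change over all libraries -0.51, SE 0.06). Col2a1, the main collagen of cartilage, had 2519 to 3262 CPM against 1965 to 2411 CPM at 3 h, with no overlap, and 5961 to 8596 CPM against 4309 to 6559 CPM at 24 h, where the sets overlapped (-0.32, SE 0.06, adjusted p = 0.00123 by edgeR). Hapln1, which links aggrecan to hyaluronan, was lower by a log2 fold change of -0.62, and Comp, a pentameric matrix protein, by -0.90. Sox9, the transcription factor that starts the cartilage programme, was not called, with a log2 fold change of 0.07 (SE 0.06, adjusted p = 0.517 by edgeR). It had 493 ± 77.3 CPM in replicates 1 and 2 and 515 ± 31.8 CPM in replicates 3 and 4 (mean ± SD, n = 12).

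Genes of hypertrophic cartilage and of bone-forming cells were lower too. Of 14 hypertrophic cartilage genes 10 were lower and 0 were higher (71.4% called, median log2 fold change -0.43). Of 14 osteoblast genes 8 were lower and 0 higher (57.1% called, median -0.47), beside 9.35% called of all genes. The lists share Ibsp, Alpl, Runx2, Sp7 and Spp1. The count of lower hypertrophic genes was 8 without the 2 libraries high in Yam1, 5 without replicate 3 of every group, 6 without replicate 4 of every group and 1 in controls alone. Col10a1, the type X collagen of hypertrophic chondrocytes, had 5.56, 8.46 and 15.7 CPM (lowest, median, highest) at 3 h in replicates 1 and 2 and 2.44, 3.53 and 4.29 CPM in replicates 3 and 4. At 24 h it had 126, 162 and 217 CPM against 13.0, 42.6 and 78.0 CPM, again with no overlap. Its log2 fold change was -1.90 (SE 0.20, adjusted p = 6.41e-06 by edgeR).

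Ibsp codes for bone sialoprotein, a protein of mineralizing matrix. It had 4.34 to 16.2 CPM in replicates 1 and 2 at 3 h and 0.272 to 0.819 CPM in replicates 3 and 4, with no overlap. At 24 h the range was 70.0 to 302 CPM against 8.01 to 99.2 CPM, with overlap, and the test at 24 h alone did not pass (adjusted p = 0.123 by edgeR, against 1.2e-05 at 3 h), though the change between the times was not called. Runx2, the regulator of hypertrophy and bone, was lower by a log2 fold change of -0.41 (SE 0.05, adjusted p = 4.99e-06). Alpl, the alkaline phosphatase of mineralizing tissue, was lower by -0.68 (SE 0.09) and Panx3, a channel protein of hypertrophic cells, by -0.80 (SE 0.13). Ihh, the hedgehog ligand of prehypertrophic chondrocytes, did not pass (-0.10, SE 0.07, adjusted p = 0.374).

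**Figure D2:**
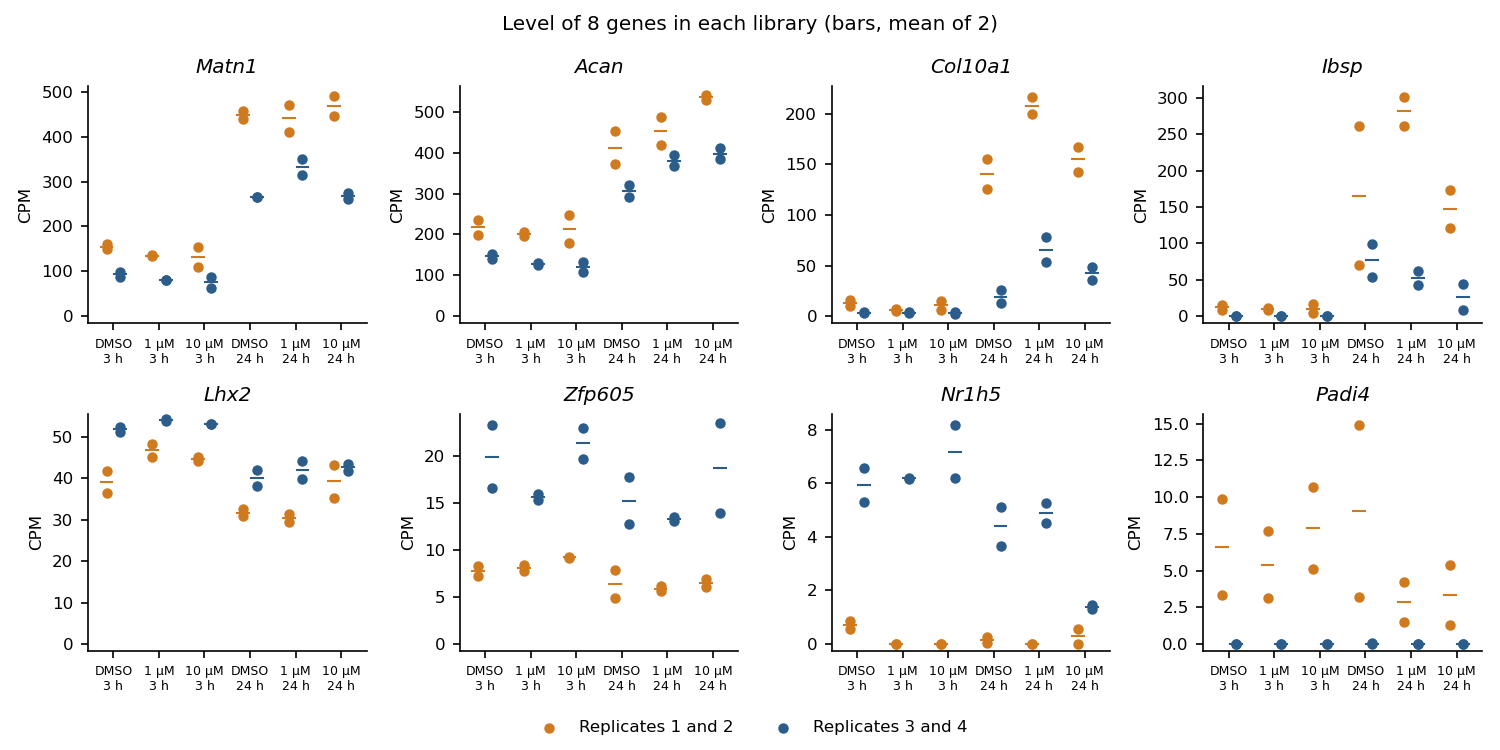
CPM (vertical axes, linear) of 8 genes in each of the 24 libraries, by dose and time along the horizontal axes and coloured by set, with a short bar at the mean of each pair. Matn1, Acan, Col10a1 and Ibsp were lower and Lhx2, Zfp605 and Nr1h5 higher in replicates 3 and 4, and Padi4 was at or next to 0 in all 12 of these libraries.

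Some patterning genes were higher in replicates 3 and 4. Of 34 limb patterning genes 8 were called (23.5%, beside 9.35% of all genes), all of them higher. The median log2 fold change was 0.12, and at 24 h alone 0 were called. The count of higher genes was 0 in controls alone, 3 without replicate 4 of every group, 4 without replicate 3 of every group and 13 without 24 h control replicate 1. Lhx2, a LIM homeobox gene of the distal mesenchyme, had 36.5, 44.7 and 48.3 CPM (lowest, median, highest) at 3 h in replicates 1 and 2 and 51.2, 53.1 and 54.4 CPM in replicates 3 and 4, with no overlap. At 24 h the values were 29.4, 31.98 and 43.2 CPM against 38.2, 41.9 and 44.1 CPM, with overlap. Its log2 fold change was 0.30 (SE 0.05, adjusted p = 0.000101 by edgeR).

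Lhx9, a relative of Lhx2, was higher by 0.31 on the log2 scale (SE 0.05, adjusted p = 0.000311 by edgeR). Grem1, a secreted BMP antagonist that sustains limb outgrowth, was higher by 0.25 (SE 0.05, adjusted p = 0.002) and Sall1, a zinc finger factor of the distal limb, by 0.21 (SE 0.05). All 3 had the same direction in all 6 groups. With the mean of each replicate number as the unit (2 numbers against 2, limma), Lhx2 (adjusted p = 0.0191) and Lhx9 (0.023) kept their calls and Grem1 (0.0619) and Sall1 (0.0755) did not. Of 12 posterior Hox genes (A9 to A13, C9 to C11 and D9 to D13), 3 were higher and 0 lower (25.0% called, beside 9.35% of all genes). Hoxd13 had a log2 fold change of 0.17 (SE 0.04, adjusted p = 0.0108) and Hoxd9 of 0.32 (SE 0.07). The call of Hoxd13 was lost with the mean of each number as the unit (adjusted p = 0.0793). The third, Hoxa13 (0.15, adjusted p = 0.0448), lost its call in 15 of 24 analyses without 1 library. Of 22 anterior Hox genes 0 were called in either direction.

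Of 22 genes of the G2 and M phases of the cell cycle, 6 were higher and 0 lower (27.3% called, beside 9.35% of all genes). The median was 0.10, and the calls were led by Nusap1, a spindle protein (0.28, adjusted p = 0.00043 by edgeR), and Ccnb1, cyclin B1 (0.24, adjusted p = 0.00103). Of 19 G1 and S phase genes 0 were higher and 1 was lower (median 0.05). Mki67, a general marker of cycling cells, did not pass (0.03, SE 0.05, adjusted p = 0.763). Of 15 retinoic acid genes 3 were higher and 0 lower. The higher ones included Aldh1a2, which makes retinoic acid (0.67, adjusted p = 0.01004), and Stra6, a retinol transporter (0.29, adjusted p = 0.0013). The list as a whole was not shifted in 1 direction. Its median was 0.03, with 7 genes below 0 and 8 above, and at 24 h alone 0 were called.

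The same lists are set here beside the change over time in culture, 24 h over 3 h in the 8 control libraries, where 3208 genes were called (19.2%), 1679 higher (10.1%) and 1529 lower (9.16%), with a median over all genes of 0.0015. These 8 libraries are also part of the comparison of the sets, so no measure of likeness is given. Over time 18 of 21 early cartilage genes rose (median log2 fold change 1.00), 12 of 14 hypertrophic genes rose (0.89), 13 of 34 patterning genes fell (-0.28), all 22 G2/M genes fell (-0.83) and 18 of 19 G1/S genes fell (-0.54). Between the sets the medians were -0.45, -0.43, 0.12, 0.10 and 0.05 in the same order. Other lists had the same sign in both comparisons. Among 15 Schwann cell and glial genes 6 fell and 3 rose over time (median -0.58), with a median of -0.19 between the sets. Among 18 endothelial genes 8 fell and 1 rose over time (-0.23), with -0.10 between the sets. Single genes of the cartilage and patterning lists can also be set side by side. Col10a1 rose by 2.96 (SE 0.30) over time and differed by -1.90 between the sets, Matn1 by 1.52 (SE 0.10) against -0.70, and Lhx9 changed by -0.84 (SE 0.09) over time and by 0.31 between the sets.

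Genes of the contractile muscle, epidermal differentiation and macrophage lists mostly rose over time. Between the sets, the muscle and macrophage lists were called slightly above the 9.35% of all genes, and epidermal differentiation genes not at all. Of 25 contractile muscle genes 24 rose over time (median 1.04), while between the sets 1 was higher and 2 were lower, with a median of -0.02. At 3 h alone 3 of 25 muscle genes were lower (median -0.19), beside 3.69% of all genes, and at 24 h 0 were called (0.10). Of 19 epidermal differentiation genes 12 rose over time (2.67), and 0 were called between the sets (median 0.07). That median joins opposite values, since at 3 h 3 of 15 tested were lower (median -0.59) and at 24 h 0 were called (0.83). Of 18 epidermal basal and periderm genes 7 rose over time (0.68). At 3 h 3 of these 18 were lower (median -0.20), and over all libraries 0 were called between the sets (-0.07). Of 17 macrophage genes 12 rose over time (0.87), and 2 were lower in replicates 3 and 4 (median -0.15). Acta1, skeletal muscle actin, had a log2 fold change of -0.05 between the sets (SE 0.08, adjusted p = 0.761 by edgeR).

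**Figure D3:**
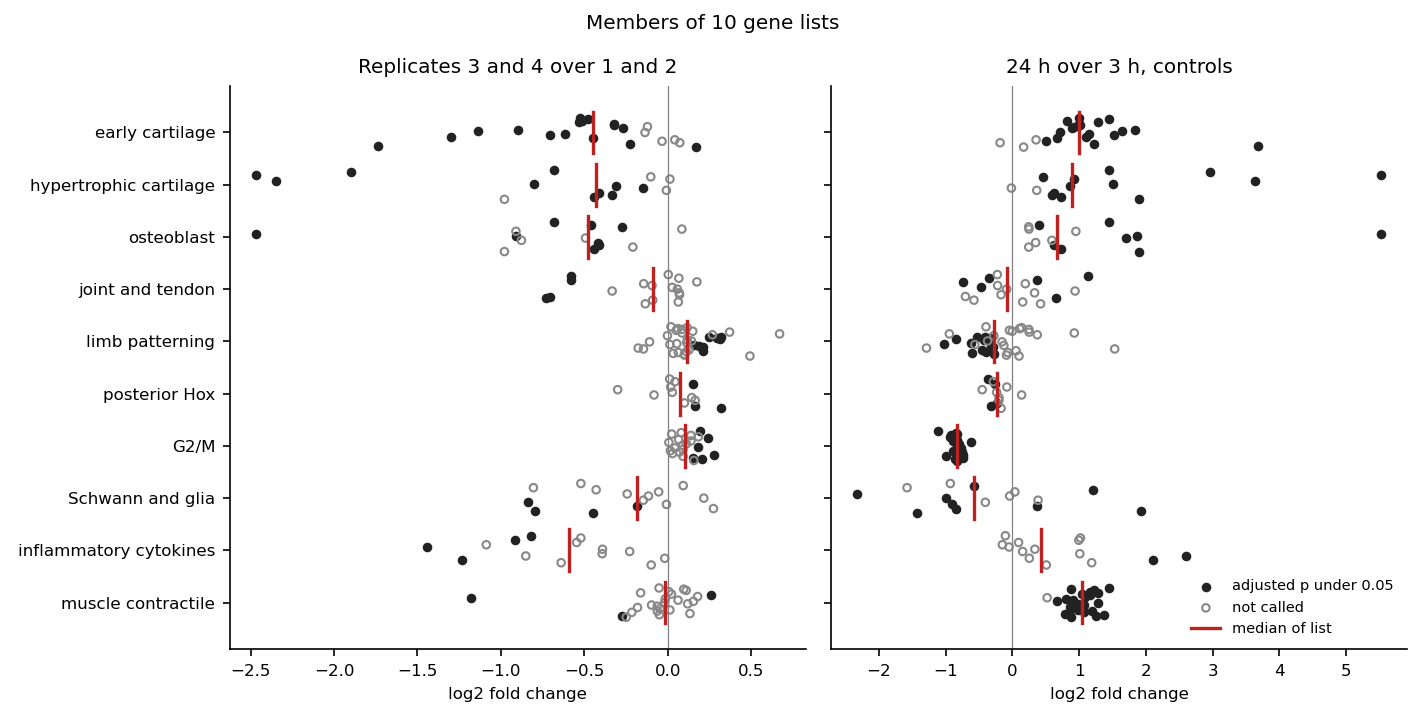
Log2 fold change of every tested member of 10 gene lists (rows) between the sets (left) and from 3 to 24 h in control libraries (right), on horizontal axes of different range. Filled points passed an adjusted p of 0.05, open points did not, and the red bar is the median of the list. The medians of early cartilage were -0.45 and 1.00, those of limb patterning 0.12 and -0.28, and those of contractile muscle -0.02 and 1.04.

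Some genes of connective tissue and of other cell types were also called, beside 9.35% of all genes. Of 17 joint and tendon genes 4 were lower and 0 higher, with a median log2 fold change of -0.09. Of the 17, 9 had a fold change below 0 and 8 above, and at 3 h alone 4 were lower and 1 was higher. The 4 called over all libraries were Tnmd (tenomodulin, a tendon membrane protein, -0.73), Thbs4 (-0.71), Fmod (fibromodulin, -0.58) and Egr1 (a mechanically induced transcription factor, -0.58). Of 13 dermal fibroblast and adipose genes 5 were lower, among them Dpt (dermatopontin, -0.57) and Dcn (decorin, -0.37), and 1 was higher (Ebf1, 0.31). Of 13 matrix proteases and inhibitors 6 were lower and 1 was higher. Mmp13, the collagenase of hypertrophic cartilage, was the largest (-2.35, SE 0.46, not called with the mean of each number as the unit, adjusted p = 0.0788), with 1.18 to 10.9 CPM in replicates 1 and 2 and 0.0517 to 2.39 CPM in replicates 3 and 4 at 24 h.

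Of 15 Schwann cell and glial genes 4 were lower and 0 higher, including Sox10 (a regulator of neural crest glia, -0.45). The summed level of the list was 274 to 354 CPM in replicates 1 and 2 and 235 to 302 CPM in replicates 3 and 4. Of 14 inflammatory genes 4 were lower and 0 higher (median -0.59), and all 4 were sparse. Cxcl10, a chemokine, had 0.676 to 2.18 CPM at 24 h in replicates 1 and 2 and 0.0548 to 0.582 CPM in replicates 3 and 4 (-1.44, adjusted p = 0.0259 by edgeR), and lost its call in 4 of 24 analyses without 1 library and with the mean of each number as the unit (adjusted p = 0.0777). S100a8, a neutrophil calcium-binding protein, differed by -2.60 (SE 0.47), from a highest level of 1.85 CPM. Of 17 macrophage genes 2 were called, both lower (11.8%), and of 18 endothelial genes 2, both lower (11.1%), shares near that of all genes. Over both times, summed macrophage markers had 111 to 331 CPM against 104 to 346 CPM and endothelial markers 418 to 767 CPM against 402 to 726 CPM. The summed early cartilage list, at 6531 to 18560 CPM against 5297 to 14587 CPM, overlapped over both times as well. In bulk tissue, fewer cells of a type and less RNA per cell cannot be told apart, and the part of these cell types in the other differences was not tested.

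Red cell genes were called in both directions. Hbb-bh1, an embryonic beta globin of primitive red cells, had 12.8 to 35.4 CPM at 3 h in replicates 1 and 2 and 32.6 to 62.8 CPM in replicates 3 and 4 (log2 fold change over all libraries 0.78, SE 0.15, adjusted p = 0.00173 by edgeR). Hbb-y, the other embryonic beta globin, was higher by 0.67 (SE 0.15, adjusted p = 0.00623). Hbb-bh0, a further gene of the embryonic cluster with few counts, was lower (-0.995, SE 0.30, adjusted p = 0.035). The adult genes went apart. Hbb-bs was lower, with 374 to 774 CPM against 219 to 486 CPM at 3 h (-0.73, SE 0.14, adjusted p = 0.00259), and Hbb-bt was higher (1.11, SE 0.31, adjusted p = 0.0324), though its call was lost in 6 of 24 analyses without 1 library and with the mean of each number as the unit (adjusted p = 0.167). Hbb-bs and Hbb-bt are close copies that can share reads. Their alpha partner Hba-a1 did not pass (0.05, SE 0.13, adjusted p = 0.87). Of 10 other erythroid genes Slc4a1, the anion exchanger of red cells, was higher (0.72, adjusted p = 0.00015 by edgeR) and 0 were lower. That is 10.0% called, near the 9.35% of all genes.

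Hedgehog signalling is the pathway named in the series title. Of 10 hedgehog targets 2 were called, both lower, where 9.35% of all genes were called and 5.43% were lower. Both hedgehog calls were lost with the mean of each replicate number as the unit (Gli1 adjusted p = 0.0786, Ptch1 0.184, limma). Gli1, a transcription factor induced by hedgehog, had 49.1 to 54.5 CPM in replicates 3 and 4 and 64.9 to 73.4 CPM in replicates 1 and 2 of the 3 h controls, and 93.1 and 100.1 CPM against 102.5 and 129.3 CPM at 24 h. Over all groups its log2 fold change was -0.65 (SE 0.16, adjusted p = 0.0165 by edgeR), lower in 6 of 6 groups. Ptch1, the hedgehog receptor and a target itself, differed by -0.31 (SE 0.09, adjusted p = 0.0221), lower in 5 of 6 groups. Hhip, a hedgehog-binding antagonist, did not pass (-0.06, SE 0.15, adjusted p = 0.864).

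Some genes were almost all or none. The CPM values of the 12 and 12 libraries did not overlap for 42 genes (0.252%), 17 higher and 25 lower in replicates 3 and 4. Padi4, which converts arginine to citrulline in proteins, was present in all 12 libraries of replicates 1 and 2, with 1.30, 4.68 and 14.9 CPM (lowest, median, highest) and 1258 counts in all. In replicates 3 and 4 it had 1 count in 1 library and 0 in the other 11. No fold change is given for it, since the fitted value depends on the prior count. Nr1h5, a nuclear receptor gene, was the reverse, with 0 to 0.868 CPM in replicates 1 and 2 and 1.29 to 8.18 CPM in replicates 3 and 4 (4.73, SE 0.53, adjusted p = 5.29e-06 by edgeR). Its median in replicates 1 and 2 was 0 CPM. The size of its fold change is therefore uncertain too, and lay between 3.73 and 6.56 in 39 alternative analyses.

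Zfp605, a zinc finger gene, had 4.90, 7.49 and 9.27 CPM in replicates 1 and 2 and 12.8, 16.3 and 23.6 CPM in replicates 3 and 4 (1.25, SE 0.10, adjusted p = 4.8e-10 by edgeR). Hsd3b6, a steroid dehydrogenase, was higher by 1.93 (SE 0.20), Slc15a2, a peptide transporter, by 2.003 (SE 0.33) and Myo7a, an unconventional myosin, by 1.61 (SE 0.25). Myo7a had 2.42 CPM in the lowest library of replicates 3 and 4 at 3 h, inside the range of the other set, and 16.4 CPM in the highest.

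Several of the largest differences lay close together. Dynlt1b, a dynein light chain gene at chr17:6430112-6436293 (mm10), had 8.17 to 21.0 CPM in replicates 1 and 2 and 0 to 5.02 CPM in replicates 3 and 4. Its copy Dynlt1a at chr17:6310547-6317474 was higher (1.78, SE 0.19), and Tmem181b-ps at chr17:6438524-6467022 was lower (-3.69, SE 0.43). After a called gene the next tested gene on the chromosome was called in 14.2% of cases, after a gene called at 2-fold in 24.0%, and over all genes in 9.36%. Of 729 windows of 2 Mb with at least 8 tested genes, 9 had 40% or more called. In the window of chromosome 4 from 146000001 to 148000000, 8 of 20 genes were called, all lower, 7 of them by at least 2-fold.

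Many of the large differences were in genes that have a near-identical copy, among them processed pseudogenes, which are gene copies made from a spliced transcript. Near-identical means here at least 95% identity over at least 50% of the shorter transcript. Of 1559 genes with such a copy, 12.6% were called and 5.26% differed by at least 2-fold, against 9.01% and 0.799% of 15028 genes without one. Of the 205 genes called at 2-fold, 82 had such a copy. Where transcripts differ at so few bases, the counts of parent and copy depend on how reads that match both were assigned, so the split between them is uncertain.

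Stretches of 3 ribosomal protein genes and of their copies show how few bases separate a copy whose counts differed between the sets from its parent gene. Of the 3 parents Rps2 was called, and Rpl15 (adjusted p = 0.0828) and Rps3a1 (adjusted p = 0.234 by edgeR) were not. The sequences are from GENCODE vM21 transcripts (GRCm38, the assembly of mm10), run 5′ to 3′ in the direction of the transcript, and cover the parent's coding part at positions counted from the first base of its start codon. Capitals mark the bases that differ between parent and copy. Rps2 lies at chr17:24718116-24721929 on the plus strand and Rps2-ps13 at chrX:52898588-52899469 on the plus strand, and 7 of 882 aligned bases differ. Coding positions 1 to 90 were as follows.
Rps2: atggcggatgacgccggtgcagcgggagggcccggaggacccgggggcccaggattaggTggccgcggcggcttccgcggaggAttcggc
Rps2-ps13: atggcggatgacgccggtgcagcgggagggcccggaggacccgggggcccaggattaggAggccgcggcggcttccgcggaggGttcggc
Rps3a1 lies at chr3:86137940-86142702 on the minus strand and Rps3a3 at chr13:108670603-108671397 on the plus strand, and 9 of 795 bases differ. Coding positions 174 to 263 were these.
Rps3a1: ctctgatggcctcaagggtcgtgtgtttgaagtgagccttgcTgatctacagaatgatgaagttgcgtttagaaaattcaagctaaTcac
Rps3a3: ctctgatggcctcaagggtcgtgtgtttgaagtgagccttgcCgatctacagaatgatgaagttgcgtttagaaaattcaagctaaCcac
Rpl15 lies at chr14:18267823-18271391 and Gm10020 at chr15:52477614-52478228, both on the minus strand, and 2 of 612 bases differ, both inside coding positions 116 to 205.
Rpl15: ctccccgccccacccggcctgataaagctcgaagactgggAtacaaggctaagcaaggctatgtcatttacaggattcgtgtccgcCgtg
Gm10020: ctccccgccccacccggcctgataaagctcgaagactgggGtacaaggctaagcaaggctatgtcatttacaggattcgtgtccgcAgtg

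Counts of Rps2, which codes for a protein of the small ribosomal subunit, and of its copies were split differently in the 2 sets. Rps2 itself had 1056 ± 271 CPM in replicates 1 and 2 and 672 ± 72.2 CPM in replicates 3 and 4 (mean ± SD, n = 12). Rps2-ps13 had 541 ± 150 CPM against 119 ± 146 CPM, and another copy, Rps2-ps10, had 16.2 ± 31.96 CPM against 599 ± 93.6 CPM. Rps2-ps10 held 0.104% to 7.91% of the summed level of the 3 genes in replicates 1 and 2 and 29.3% to 50.9% in replicates 3 and 4. The share of Rps2-ps13 was 22.4% to 51.6% against 0.133% to 25.0%, with overlap. Whether the copies were themselves transcribed was not tested. The sums were 1614 ± 301 CPM and 1390 ± 202 CPM.

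Gm10020, nearly the same as the coding part of Rpl15, had 12.1, 40.9 and 63.8 CPM (lowest, median, highest) in replicates 1 and 2 and 0.258, 0.610 and 0.915 CPM in replicates 3 and 4 (-6.14, SE 0.28, adjusted p = 3.59e-11 by edgeR). Rpl15 itself had 752 ± 146 CPM and 878 ± 97.3 CPM, and Rps3a1 had 1502 ± 388 CPM and 1719 ± 223 CPM. Rps3a3 held 0.0649% to 15.98% of the Rps3a1 family sum in replicates 1 and 2 and at most 0.227% in replicates 3 and 4. In all 6 groups the share in replicate 2 (5.61% to 15.98%) was above that in replicate 1 (0.0649% to 4.56%).

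Rpl26 and its pseudogene Gm15772 moved in opposite directions. Rpl26 had 47.5 to 640.1 CPM in replicates 1 and 2 and 584.6 to 1163 CPM in replicates 3 and 4 (1.501, SE 0.32, adjusted p = 0.00597 by edgeR), and Gm15772 had 186 to 538 CPM against 1.499 to 234 CPM (-2.34, SE 0.66, adjusted p = 0.0326, lost in 5 of 24 analyses without 1 library). Their sum was 668 ± 162 CPM against 876 ± 153 CPM, higher in replicates 3 and 4. Capza1, a subunit of the actin capping protein, had 95.2 ± 11.4 CPM against 63.5 ± 3.88 CPM and its copy Gm3608 24.8 ± 6.13 CPM against 57.3 ± 3.72 CPM. Their sums were 120.003 ± 11.9 CPM and 120.8 ± 6.96 CPM.

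Ubb, which codes for ubiquitin, had 1027 ± 108 CPM against 1396 ± 162 CPM, and Gm1821, a near-identical copy, 157 ± 19.7 CPM against 33.1 ± 21.8 CPM. The Ubb sum was 1184 ± 124 CPM against 1429 ± 158 CPM, higher in replicates 3 and 4 as well. The sums of single families named here are given as descriptions, without a test result of their own. With the mean of each replicate number as the unit (2 numbers against 2, limma), the calls of Rps2 (adjusted p = 0.0582), Rps2-ps10 (0.113), Rps3a3 (0.504), Rpl26 (0.254), Gm15772 (0.251) and Gm1821 (0.17) were lost. When the counts of near-identical genes were added into families, an analysis chosen after the data were seen, 1432 of 16033 genes or families were called. Of 901 families 94 were called (10.4%), and 11 at 2-fold.

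**Figure D4:**
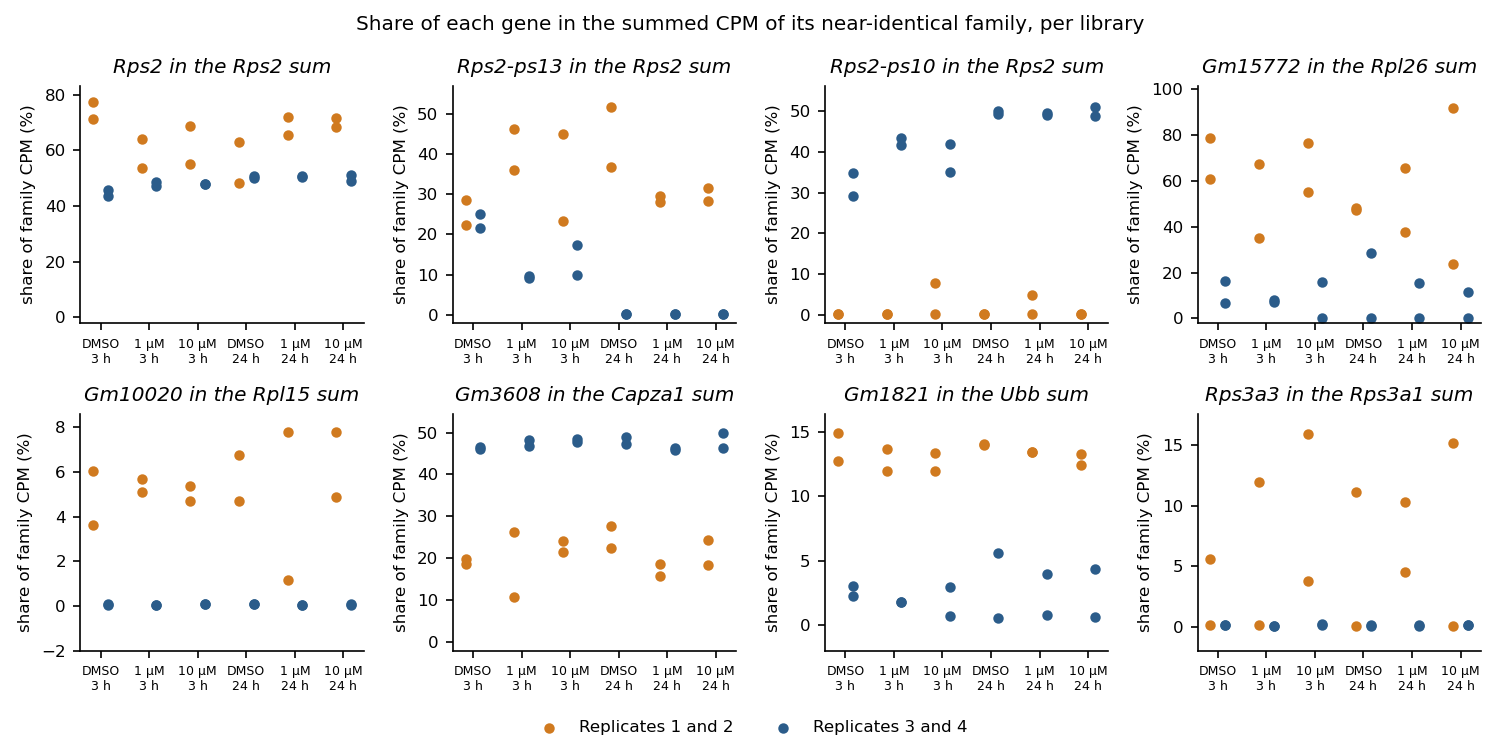
Share of each of 8 genes in the summed CPM of its near-identical family (vertical axes, percent) in each of the 24 libraries, by dose and time along the horizontal axes and coloured by set. Rps2-ps10 held up to 7.91% in replicates 1 and 2 and at least 29.3% in replicates 3 and 4, Gm3608 at most 27.7% against at least 45.9%, and Gm1821 at least 11.9% against at most 5.58%.

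The difference between the sets was present at both culture times. In the 12 libraries at 3 h, 998 of 15920 genes were called (6.27%), 410 higher (2.58%) and 588 lower (3.69%), and in the 12 at 24 h 238 of 16002 (1.49%), 78 higher (0.487%) and 160 lower (1.0%). These fits share no library. Among 15563 genes tested at both times, 158 were called at both, all 158 in the same direction, which was 16.1% of the 3 h calls and 67.5% of the 24 h calls. Of the genes called at 3 h 89.8% had the same sign at 24 h, and of those called at 24 h 98.3% had the same sign at 3 h, where 64.9% of all genes did. Across genes the correlation of the log2 fold changes was 0.61, given as a description.

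Cartilage genes were lower at both times. At 3 h 13 early cartilage genes were lower (median -0.36) and 0 higher, and at 24 h 7 were lower (-0.34) and 0 higher. Of hypertrophic genes 6 were lower at 3 h and 4 at 24 h, with medians of -0.41 and -0.42. Of patterning genes 6 were higher at 3 h and 0 at 24 h, with medians of 0.13 and 0.13. The number of calls at 3 h depended on single libraries. It was 566 without 10 µM replicate 3, 593 without 1 µM replicate 3 and 661 without control replicate 1, and 376 without the 2 libraries with high Yam1 levels. At 24 h it was 152 without 10 µM replicate 3 and 359 without control replicate 1.

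The change of the set difference from 3 to 24 h, tested as an interaction in a fit of all 24 libraries, was called for 3 genes (0.018%), 1 upward (0.00599%) and 2 downward (0.012%), with 1079 at an unadjusted p under 0.05. It was called for 11 genes without 24 h control replicate 2, for 6 without 3 h control replicate 3 and for 5 without 10 µM replicate 3 at 3 h. Rps2-ps13 had 132 to 407 CPM in replicates 3 and 4 at 3 h and 1.59 to 3.81 CPM at 24 h, against 260 to 747 CPM and 445 to 699 CPM in replicates 1 and 2 (difference of log2 fold changes -6.49, adjusted p = 5.73e-07 by edgeR). Tmem181b-ps had 3.71 to 9.64 CPM and then 0.219 to 1.10 CPM in replicates 3 and 4, against 24.4 to 43.6 CPM and 26.1 to 45.7 CPM (-3.59, adjusted p = 0.00839). Cytl1, a secreted protein of cartilage, had 21.6 to 38.7 CPM in replicates 3 and 4 at 3 h against 35.5 to 59.6 CPM, and 110 to 200 CPM against 82.0 to 240 CPM at 24 h (0.71, adjusted p = 0.00839).

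The last comparison asked whether BPDP acted differently in the 2 sets. The hedgehog targets Gli1, Ptch1 and Hhip fell with 10 µM at 24 h in both. Gli1 had 102.5 and 129.3 CPM in controls 1 and 2 at 24 h and 2.79 and 2.48 CPM with 10 µM, and 100.1 and 93.1 CPM in controls 3 and 4 against 0.128 and 1.49 CPM. Its log2 fold change was -5.45 (SE 0.45) within replicates 1 and 2 and -6.90 (SE 0.54) within replicates 3 and 4, and the difference of -1.44 (SE 0.79) did not pass (adjusted p = 0.953 by edgeR). Ptch1 fell by 2.08 (SE 0.22) and by 1.63 (SE 0.22) on the log2 scale, with a difference of 0.45 (SE 0.31). Ihh rose by 1.98 (SE 0.16) and 1.69 (SE 0.16), with a difference of -0.29 (SE 0.23), and Mki67 fell by 0.90 and 0.86 (difference 0.04, SE 0.16).

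Over all genes, the response to 10 µM at 24 h was called for 639 genes within replicates 1 and 2 (3.83%), 256 higher (1.53%) and 383 lower (2.29%), and for 993 within replicates 3 and 4 (5.95%), 396 higher (2.37%) and 597 lower (3.58%). The difference between the 2 responses was called for 0 genes by edgeR (0.0%), with 780 at an unadjusted p under 0.05 and 2 calls by DESeq2. It was called for 88 genes without 24 h control replicate 2 and for 12 without 10 µM replicate 3 at 24 h. At 3 h it was called for 0 genes (0.0%), with 203 at an unadjusted p under 0.05 and 0 calls by DESeq2. On simulated data with 2 libraries in each cell the 24 h test recovered 43.4% of genes whose response differed 2-fold and 9% of those that differed 1.5-fold, so most differences below 2-fold would be missed. Col10a1 had a response of 0.14 (SE 0.35) in replicates 1 and 2 and 1.14 (SE 0.38) in replicates 3 and 4, and the difference of 1.00 (SE 0.52) did not pass (adjusted p = 0.953).

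**Figure D5:**
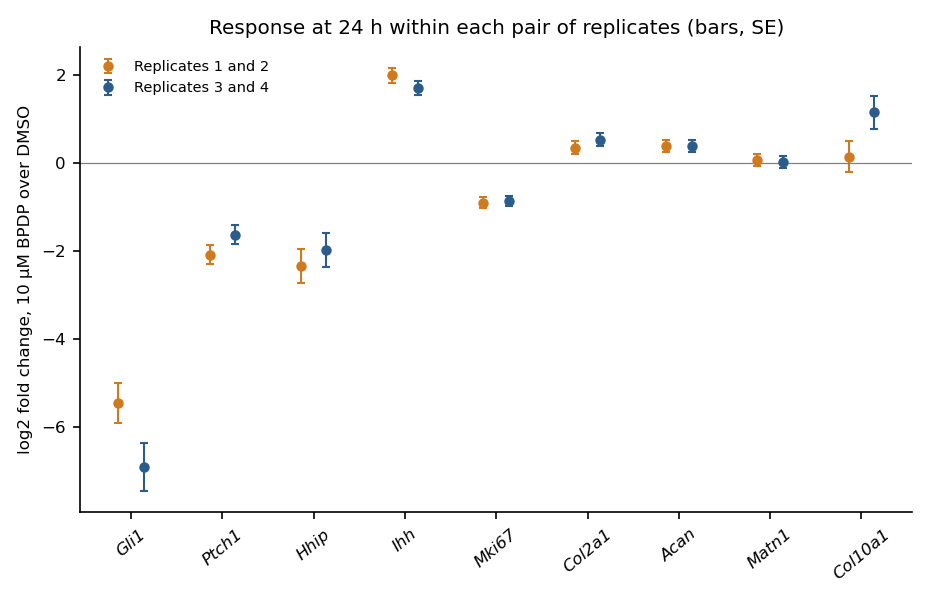
Log2 fold change of 10 µM BPDP over DMSO at 24 h (vertical axis) for 9 genes (horizontal axis), fitted within replicates 1 and 2 and within replicates 3 and 4, with bars of 1 SE. Gli1, Ptch1 and Hhip fell in both sets and Ihh rose in both.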

How the data were processed

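The authors deposited 5 pairwise tables with raw read counts per gene and library, gene lengths and FPKM. Per the submitters' processing notes, mm10 was the build, and CASAVA 1.8, STAR 2.5 and HTSeq 0.6.1 are listed with a DESeq2 release written only as 2. How reads matching several genes were counted, and whether strand was used, is not given in the sources used here. The 40 FPKM columns of single libraries were not used. Counts were joined by gene identifier into 25844 genes. Libraries that occur in several tables had 0 of 375696 values that differed, and 34232 values of genes left out of a table were set to 0. The lowest chi-square per degree of freedom between 2 libraries of a group was 4.70, so none was a near copy.

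Counts were tested in R 4.3.3 with the quasi-likelihood method of edgeR 4.0.16 (robust fit), with TMM scaling, filterByExpr (minimum count 10, minimum total 15) and Benjamini-Hochberg adjustment over all genes tested. The main model held group and set. Contrasts within sets and interactions came from a fit of 12 cells of 2 libraries, and replicate numbers were contrasted in a model of group and number. A gene was called at an adjusted p under 0.05. Near-identical genes were found with blastn 2.17.0 among GENCODE vM21 transcripts. On simulated data the 12 against 12 test recovered 70% of 1.5-fold and 87.9% of 2-fold changes in 16527 genes, with 3 false calls.

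The sets and the 62 gene lists were chosen with earlier results of these data known, so the lists are described by counts and medians and not tested. Genes were named by a rule: the 12 higher and 12 lower called genes with the largest change among those with at least 50 counts in the higher set, the same direction in 6 groups and no predicted-gene symbol, up to 5 called members of each list or 2 where none was called, genes of the interactions, and fixed markers. Near-identical parents and copies, Yam1, Ucma, Hapln1, Comp, Hbb-bh0 and Wwp2 were named after their values were seen. Alternatives were other scaling, no filter, DESeq2 1.42.0, limma 3.58.1, the replicate number as a block, length and GC correction, Xist as a covariate, controls only, means per number, and leaving out libraries or numbers.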

Additional observations from a re-analysis of the deposited data

Results flagged for a closer look

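Each of 4 library measures (total count, genes detected, Yam1 and Xist levels) was looked at in the 6 groups of 4 libraries for 1 library far from the others by Dixon's 95% criterion, which chance meets in about 1 group in 20. Yam1 was the only measure to do so, in 2 groups. It had 48746 CPM in 3 h control replicate 4, where the other 3 controls had 755 to 975 CPM, and 57469 CPM in 1 µM replicate 3 at 3 h, where the others had 819 to 1344 CPM. Without both libraries 1108 genes were called over all groups and 376 at 3 h, with fewer libraries in the test. At 3 h the count was 668 without the control library alone and 593 without the 1 µM library alone, and 566 without 10 µM replicate 3, whose Yam1 level was not apart. The part of the Yam1 libraries in the difference was not tested.

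For 3 genes the difference between the sets itself differed between 3 and 24 h by the interaction test. The change was -6.49 for Rps2-ps13, -3.59 for Tmem181b-ps and 0.71 for Cytl1 on the log2 scale. Rps2-ps13 has a near-identical parent gene.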

How the results depend on the processing

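The count of 1561 called genes became 821 with the mean of each replicate number as the unit (2 numbers against 2) and 99 in the 8 control libraries alone, and stayed within 1.5 times under the other settings that keep all 24 libraries. Without 1 library it was 1288 to 1765, and without 1 replicate number in all groups 518 (without 3) to 1129, with 669 without 4. At 3 h the range was 566 to 1214 without 1 library and 170 to 898 without 1 number (499 without 1, 170 without 3, 396 without 4), and 376 without the 2 libraries high in Yam1. At 24 h it was 152 to 359 and 92 to 205 (92 without 3, 131 without 4), 841 with no filter and 593 with DESeq2. For the change of the difference over time it was 3 to 11 without 1 library, 129 with no filter and 15 with DESeq2. For the 10 µM response at 24 h it was 0 to 88 (88 without 24 h control replicate 2, 12 without 10 µM replicate 3), 87 with no filter and 2 with DESeq2, and at 3 h 0 to 1 and 21. The cause of these shifts was not tested.

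Lower early cartilage genes numbered 15 to 16 without 1 library, 11 to 14 without 1 number and 7 in controls alone. Hypertrophic genes numbered 9 to 11, 5 to 9 and 1. Higher patterning genes numbered 8 to 13 (13 without 24 h control replicate 1), 3 to 9 and 0, and 5 with means per number.

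Replicate number was also fitted as a block, and 2169 genes were then called (1245 at 3 h, 256 at 24 h), at a consensus correlation of -0.0268, against 1594 with the same tool and no block. The numbers cannot pair libraries across the sets, since each set holds its own. Replicate 1 of 10 µM at 3 h correlated more with libraries numbered 2 (0.225) than with those numbered 1 (0.136). Replicate 2 of that group correlated more with number 1 (0.170) than with number 2 (0.105). Its replicate 3 had 0.193 with number 4 and 0.146 with number 3, and its replicate 4 had 0.162 with number 3 and 0.157 with number 4. The other 3 h groups held such libraries too. Replicate 3 of 1 µM had 0.181 with number 4 and 0.150 with number 3. Replicate 4 of 1 µM had 0.163 with number 3 and 0.140 with number 4, and control replicate 4 had 0.161 and 0.151. Whether a number means the same in every group was not tested. Without the 10 µM group at 3 h, which was left out after the data were seen, replicate 2 differed from 1 in 20 genes and 4 from 3 in 5. The family sums and the analyses without the Yam1 libraries were also chosen after the data were seen.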
